A study of Mus musculus with 2 samples.

Results

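The nuclear genes of oxidative phosphorylation were described here across the cell types of mouse sensory ganglia. They were taken as every gene symbol of the deposited tables that begins with Nduf, Uqcr, Cox4, Cox5, Cox6, Cox7, Cox8 or Atp5, leaving out symbols that end in os or hold -ps. That gave 90 gene identifiers of the 31253 in the tables, made up of 36 for complex I, 8 for its assembly factors, 8 for complex III, 20 for complex IV and 18 for complex V. Ndufa4 and Ndufa4l2, once assigned to complex I, were counted with complex IV. The 13 protein genes of the mitochondrial genome, whose symbols start with mt-, were followed beside them. The ganglia were the L4-5 dorsal root ganglia of wild-type mice aged 8 weeks that had received acetone, ether and water (AEW) on the skin, a dry-skin model of itch. The series holds 2 libraries of that single group, AEW replicates 1 and 2, with no untreated or pain group, so each comparison is between cell types of the same libraries. Nothing in the labels tells whether the libraries came from separate mice. With the library as a term of the fit, p-values measure how differences between types vary between these libraries. That spread may be technical.

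Oxidative phosphorylation passes electrons from NADH through complex I, or from succinate through complex II, to complex III, cytochrome c and complex IV, and complex V uses the resulting proton gradient to make ATP. Complexes I, III, IV and V are each built from subunits encoded in the nucleus and subunits encoded in mitochondrial DNA, and several complex IV subunits exist as paralogues of restricted tissue. Sensory neurons keep long axons supplied with ATP, and large myelinated A-fibre neurons fire fast, while unmyelinated C-fibre neurons carry itch, pain and warmth.

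Promoters of respiratory genes are known for binding sites of the activators NRF1 and GABPA (an ETS factor) and of YY1, so the windows of 3 genes that were high in neurons or A-fibre neurons or abundant everywhere (Ndufa11, Atp5h, Atp5k) and of 1 restricted paralogue (Cox7a1) are shown. They were chosen with the results known. Each holds the 250 bases before and 50 bases after the gene's start, 5′ to 3′ on the gene's strand, from RefSeq on build GRCm38.p6, and capitals mark the motif matches. Ndufa11 lies at chr17:56717512-56717811 on the plus strand, Atp5h at chr11:115419870-115420169 on the minus strand, Atp5k at chr5:108434350-108434649 on the minus strand and Cox7a1 at chr7:30183921-30184220 on the plus strand.
Ndufa11: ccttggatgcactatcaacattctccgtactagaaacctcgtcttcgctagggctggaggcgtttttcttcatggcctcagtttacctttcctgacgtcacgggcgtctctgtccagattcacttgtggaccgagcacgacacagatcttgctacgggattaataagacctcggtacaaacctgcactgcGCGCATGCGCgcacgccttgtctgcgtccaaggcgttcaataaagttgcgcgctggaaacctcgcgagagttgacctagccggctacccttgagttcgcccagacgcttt
Atp5h: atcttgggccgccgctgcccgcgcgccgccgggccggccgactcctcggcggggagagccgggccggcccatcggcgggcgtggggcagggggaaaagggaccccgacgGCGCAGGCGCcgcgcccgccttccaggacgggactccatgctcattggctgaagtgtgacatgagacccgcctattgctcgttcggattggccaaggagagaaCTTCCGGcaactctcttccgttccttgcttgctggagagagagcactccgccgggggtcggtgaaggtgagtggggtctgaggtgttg
Atp5k: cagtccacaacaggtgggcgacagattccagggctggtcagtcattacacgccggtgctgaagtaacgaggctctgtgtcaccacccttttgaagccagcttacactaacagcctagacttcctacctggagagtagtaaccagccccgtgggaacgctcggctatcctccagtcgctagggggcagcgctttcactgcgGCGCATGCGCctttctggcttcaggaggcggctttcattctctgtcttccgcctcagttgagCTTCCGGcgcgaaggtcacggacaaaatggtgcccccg
Cox7a1: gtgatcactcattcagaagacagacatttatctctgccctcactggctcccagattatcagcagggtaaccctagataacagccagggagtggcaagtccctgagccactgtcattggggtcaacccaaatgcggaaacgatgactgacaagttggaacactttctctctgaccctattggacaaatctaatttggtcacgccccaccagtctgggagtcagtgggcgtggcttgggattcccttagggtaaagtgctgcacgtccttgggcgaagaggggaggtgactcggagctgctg
The capitals of Ndufa11 are a match to the palindromic NRF1 motif at base 191 of the window. Atp5h held an NRF1 match at base 110 and an ETS match (CCGGAAG, here on the other strand) at base 213, and Atp5k held them at bases 201 and 263. Cox7a1 had no match to any of the motifs in this window. Other genes with large differences mostly had none either. These were Ndufv3, Ndufa4, Atp5g1 and Ndufb8, high in neurons, and Cox5a, Uqcr10, Ndufaf2 and Ndufa12, high in A-fibre neurons. Ndufaf5, high in A-fibre neurons, held an NRF1 match, and no window was found for Ndufaf6. A link between motifs and levels was not tested.

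Promoter windows were found for 73 of the 89 member symbols (78 windows). A motif on either strand was held by 36 of the 73, or 49.3%, against 30.8% of all genes tested across the broad cell types. The NRF1 motif was in 23.3% of members against 10.9% of those genes, the ETS motif in 23.3% against 18.8%, and the YY1 motif (ATGGCGGC) in 9.59% against 5.39%. The windows of the members had a median GC content of 57.5%, against 60.67% for the tested genes. These matches describe letters in the windows, not sites in use.

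The matrices summed to 113251556 UMIs over 8818 barcodes in replicate 1 and 102347251 UMIs over 11767 barcodes in replicate 2, and 24 barcodes occurred in both. Cell types are gates on marker genes drawn here, not an annotation by the authors. The labels call the cells neurons, yet cells passing the neuron markers were a minority: 472 and 803 deep neurons and 1036 and 810 shallow ones, beside 2360 and 2476 satellite glia. Deep neurons, used as the neurons below, had medians of 119943 and 59442 UMIs a cell, against 8119 and 7014.5 in satellite glia and 2933 and 3426 in pericytes. The 9 neuron markers summed to 132.2 and 134.4 UMIs per 10000 in neurons and to between 10.95 and 42.68 in the other types of the fit, and the 6 satellite glia markers to 10.11 and 11.32 in neurons against 1095 and 1054 in satellite glia. The shallow neurons, at medians of 1034 and 1484.5 UMIs a cell, were left out of the tests but held nearly the same summed level of the nuclear genes as the deep ones, 490.4 and 392.9 UMIs per 10000 against 503.1 and 403.5. Their mt- sum was higher, at 354.0 and 454.6 against 205.5 and 366.1 in the deep neurons. The part of the foreign markers in the results was not tested. All levels are UMIs of a gene per 10000 UMIs of the summed cells of 1 type in 1 library. Since UMIs tag the 3' end of a molecule, levels were not divided by gene length.

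Neurons carried the highest summed level of the nuclear genes. The sum was 503.1 and 403.5 UMIs per 10000 in neurons of replicates 1 and 2, against 358.0 and 303.4 in satellite glia, the cells that wrap neuron cell bodies. Smooth muscle followed neurons at 410.8 and 354.6, and pericytes at 366.3 and 310.6. Both mural types lay below neurons in each library, but neurons of replicate 2 did not exceed smooth muscle of replicate 1. The Schwann cells and B cells held between 269.7 and 302.6, fibroblasts 255.2 and 241.4, macrophages 230.9 and 208.7, endothelial cells 214.4 and 192.9, and neutrophils 156.7 and 202.9. Erythroid cells were lowest in both libraries, at 84.62 and 179.1. Levels are shares of all UMIs of a type, and the globin gene Hbb-bs alone took 4077 and 3149 per 10000 in erythroid cells. In neutrophils S100a9 took 1518 and 1294. The part of such abundant genes in this order was not tested. Pericytes and satellite glia, neighbours in this order, differed by less than the gap between the libraries.

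The mitochondrially encoded genes ran in a different order, among cells whose mitochondrial share was under 20% by the filter. Their sum was 205.5 and 366.1 UMIs per 10000 in neurons, against 778.0 and 857.8 in satellite glia and 828.8 and 877.1 in smooth muscle. The mt- sum divided by the nuclear sum was therefore 0.4085 and 0.9073 in neurons, 2.173 and 2.827 in satellite glia and 2.018 and 2.473 in smooth muscle. Over the 12 types, which share libraries and differ in depth, the nuclear and mt- sums had a Pearson's r of 0.5625 in replicate 1 and 0.6007 in replicate 2, and over the 11 types without neurons 0.8771 and 0.8933. Neurons stood off the line of the other types, with an mt- sum that was low beside their nuclear sum. That mt- sum was not the lowest. It lay above neutrophils and erythroid cells in both libraries, and above endothelial cells and macrophages in replicate 2. Neutrophils had ratios of 0.4814 and 0.826, in replicate 2 below neurons.

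**Figure D1:**
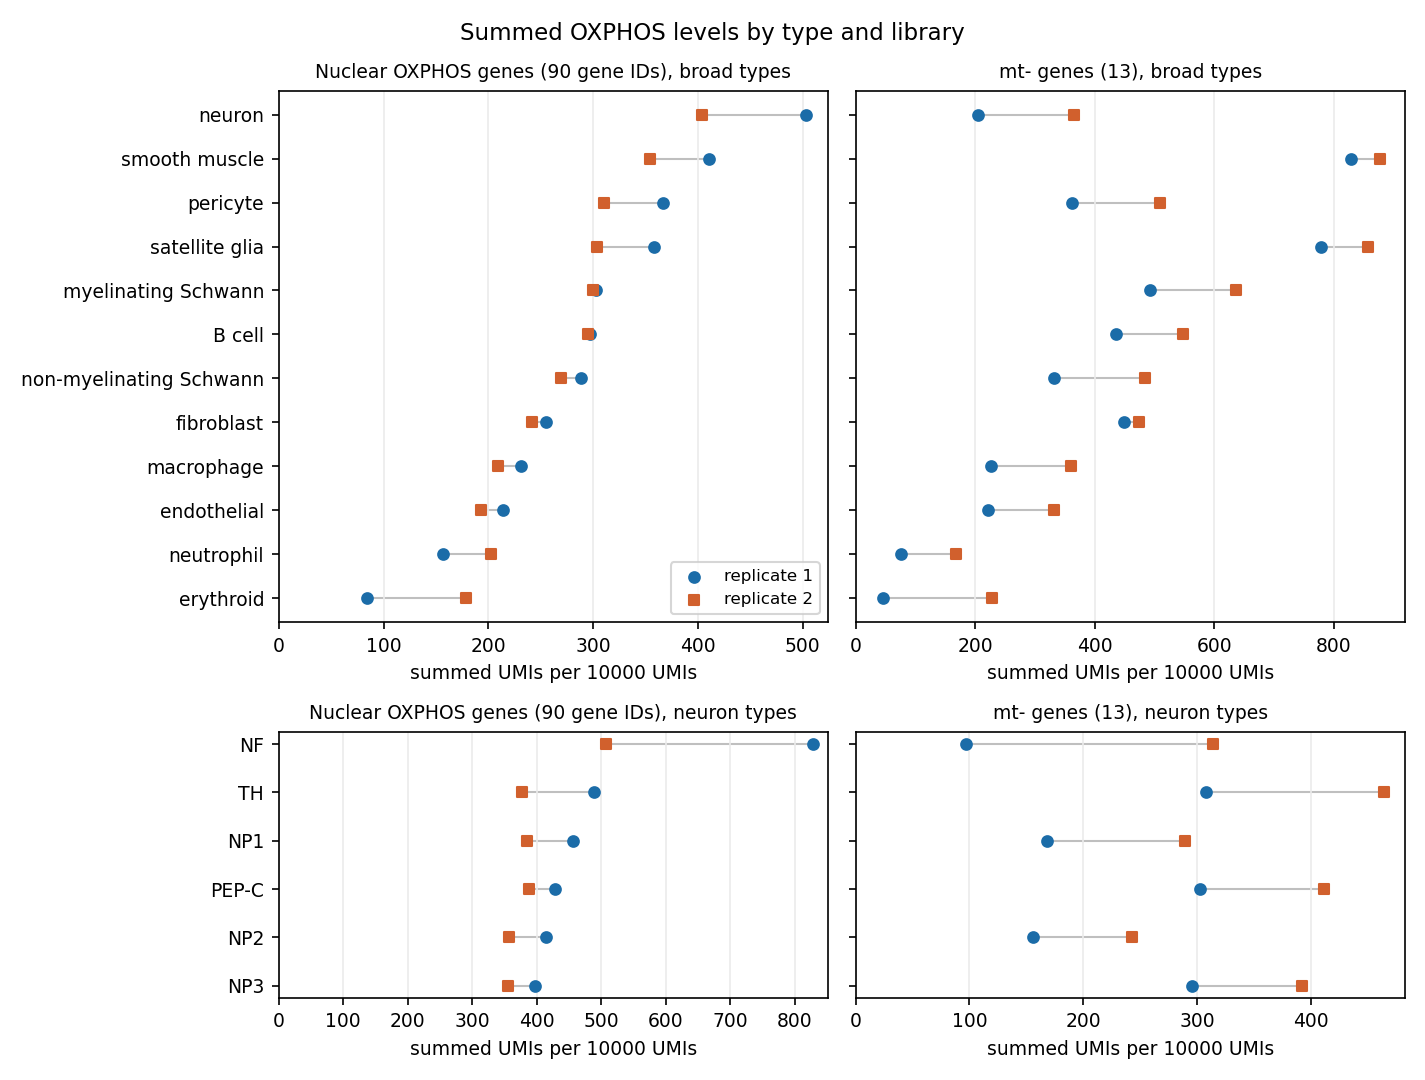
Summed UMIs per 10000 of the nuclear oxidative phosphorylation genes (left) and the mt- genes (right) in broad types (top) and neuron types (bottom) that entered the tests; PEP-A and TRPM8 neurons are not drawn. Points are the 2 libraries, joined by a line. Among the types drawn, neurons and NF neurons head the nuclear sums, at 503.1 and 403.5 and at 827.8 and 507.5, while satellite glia and smooth muscle head the mt- sums.

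The single members were shared out widely rather than resting on a few. The 6 most abundant members of a type held 21.11% and 21.62% of the members' UMIs in neurons and 22.33% and 22.32% in satellite glia. Averaged over types, Cox8a, Cox4i1, Cox6c, Ndufa4, Cox7c and Atp5h were the highest. Of 88 members with a UMI in these types, 33 had their highest level in neurons in both libraries, 13 in smooth muscle, 5 in satellite glia and 2 in pericytes. The same shares over all genes were not computed. Cox8a, a small structural subunit of complex IV, read 20.6 and 18.4 per 10000 in neurons, 23.5 and 20.7 in smooth muscle and 15.6 and 14.2 in satellite glia. Cox7b2, a paralogue known from testis, had 48 and 45 UMIs in all neurons together and at most 4 in any other type of a library. The neuron sums were far deeper, at 57004786 and 46342043 UMIs against 993309 and 1219375 in macrophages. Per 10000 UMIs, its highest level among the types of the fit was in macrophages in replicate 1 and in neurons in replicate 2. Cox8b, a muscle form, and Cox8c, a testis form, had at most 2 UMIs in any type of a library, and the second identifier of Atp5o had none.

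In neurons against the mean of the non-neuronal types (satellite glia, both Schwann types, endothelial cells, pericytes, smooth muscle, fibroblasts, macrophages, neutrophils and B cells), members of every complex were higher. Of 85 members tested, 77 were higher, 2 lower and 6 passed in neither direction, where 37.8% of all 12503 genes tested were higher and 20.1% lower. The members higher were 34 of 36 in complex I, 8 of 8 of its assembly factors, 8 of 8 in complex III, 12 of 16 in complex IV and 15 of 17 in complex V. The median log2 difference of the members was 0.67, against 0.23 for all genes. Another scaling of the libraries (RLE) moved all genes to a median of -0.11 and the members to 0.32, with 44 members higher and 2 lower, so that members lay 0.45 above all genes with the main scaling and 0.43 with RLE. Of the 13 mt- genes, 10 were lower in neurons and none higher, with a median of -0.80.

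The largest difference among complex I subunits was that of Ndufv3, an accessory subunit of the NADH-oxidising module. Its level was 6.31 and 4.86 per 10000 in neurons, against 1.93 and 1.72 for the mean of the non-neuronal types, whose highest value was the 2.63 of satellite glia. The log2 difference was 1.63 ± 0.12 (SE), with an adjusted p of 1.86e-11 by edgeR's quasi-likelihood test with Benjamini-Hochberg adjustment. Ndufa4 (chr6:11900292-11907497), a subunit now placed in complex IV, read 24.7 and 21.7 in neurons and 7.65 and 9.29 in the non-neuronal mean, a log2 difference of 1.51 ± 0.14. Neurons lay above each of the other types for both genes. Ndufa11 and Ndufb8, subunits of the membrane arm of complex I, were higher by log2 1.33 ± 0.13 and 1.31 ± 0.13, and the assembly factor Ndufaf6 by 1.32 ± 0.19. In replicate 2 non-myelinating Schwann cells held Ndufaf6 at 0.2994 (9 UMIs), above the 0.2348 of neurons. Neutrophils held 0 and 1 UMIs of Ndufaf6 and B cells 2 in each library, so its difference rests in part on the prior count of the fit.

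Among the 3 genes that encode the same mature c subunit of the ATP synthase rotor, the difference was unequal in size. Atp5g1 read 12.3 and 10.03 in neurons and 4.22 and 4.69 in the non-neuronal mean, log2 1.38 ± 0.13. Atp5g3 was higher by 0.97 ± 0.13 and Atp5g2 by 0.55 ± 0.13, though Atp5g2 no longer passed with RLE scaling (0.20, adjusted p = 0.2295). In complex IV, Cox6a1 was higher by 1.15 ± 0.13, Cox6b1 by 0.92 ± 0.13, Cox7a2 by 0.88 ± 0.13 and Cox4i1 by 0.50 ± 0.14, and Cox4i1 and Cox7a2l did not pass with RLE scaling (adjusted p = 0.4034 and 0.1391). Atpif1, the inhibitor of ATP hydrolysis by complex V and not a member by its symbol, read 20.85 and 12.71 in neurons and 4.794 and 4.174 in satellite glia, and was higher than the non-neuronal mean by 1.58 ± 0.17.

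Only 2 members were lower in neurons than in the non-neuronal mean, Cox6b2 and Cox7a1. Cox6b2 (chr7:4751792-4753094), known as the testis form of Cox6b, read 0.0139 and 0.00647 per 10000 in neurons (79 and 30 UMIs), against 0.207 and 0.155 in the non-neuronal mean. Its log2 difference was -3.39 ± 0.57 (adjusted p = 1.74e-05). Cox7a1 (chr7:30184144-30186078), known as the heart and muscle form of Cox7a, read 0.0735 and 0.0393 in neurons and 0.175 and 0.0956 in the mean, -0.88 ± 0.29 (adjusted p = 0.0127). That call was lost without the library term (adjusted p = 0.1226) and its sign turned to 0.03 (adjusted p = 1.0) when cells needed at least 1000 genes. B cells and neutrophils held at most 2 UMIs of either gene in a library, so both differences from the mean rest in part on the prior count of the fit. Both genes are scarce next to their partners Cox6b1, at 12.2 and 9.80, and Cox7a2, at 12.1 and 9.57 in neurons.

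Lists around the respiratory chain were mixed in neurons. Of the complex II and cytochrome c genes, 4 of 6 were higher and none lower, with Cycs (cytochrome c) at 1.21 ± 0.12 and Sdhb, an iron-sulphur subunit of complex II, at 1.17 ± 0.11. Of the complex IV assembly genes, 7 of 11 were higher and none lower. Of the TCA cycle genes, 9 of 14 were higher and 1 lower, the lower one being Suclg2, the GTP-forming succinyl-CoA ligase subunit, at -2.57 ± 0.44. Of the glycolysis genes, 15 of 19 were higher and 3 lower, with Gapdh at 1.73 ± 0.12. Of 8 mitochondrial biogenesis regulators, 1 was higher and 5 were lower, and the lower ones included Nrf1 at -1.50 ± 0.21 and Gabpa at -1.06 ± 0.18, the activators whose motifs are shown above.

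**Figure D2:**
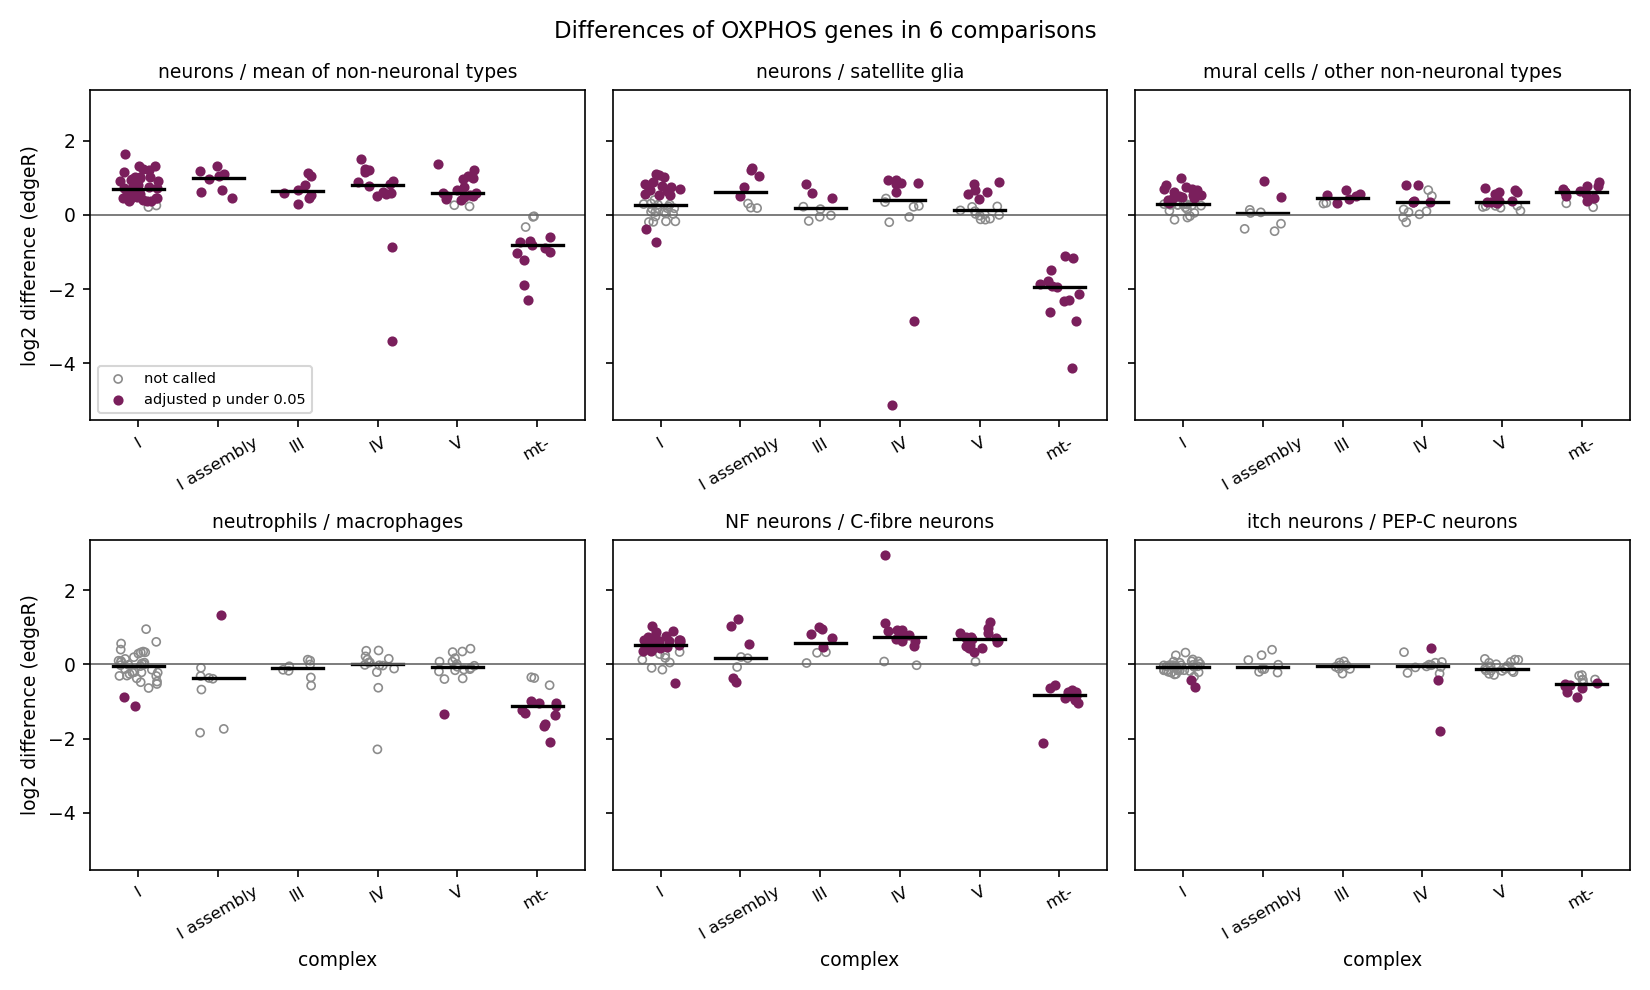
Log2 differences from the edgeR fits for the members by complex and for the mt- genes, in 6 comparisons with the first-named cells on top of the ratio; filled points passed an adjusted p of 0.05 and bars are medians. Cox4i2, Ndufa4l2 and Cox6a2, with 0 UMIs in some type, are left out. Members lie mostly above 0 and mt- genes below it where neurons are set against non-neuronal cells and NF neurons against C-fibre neurons; the members' median against satellite glia, 0.24, turned to -0.02 with RLE scaling and with DESeq2.

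Set against satellite glia alone, neurons showed a smaller nuclear difference and a larger mitochondrial one. Of 85 members, 34 were higher, 5 lower and 46 passed in neither direction. The background was 33.8% of genes higher and 33.3% lower, so 34 of 85 is near it, while 5 of 85 lower is below it. The members' median was 0.24 against 0.01 for all genes. With RLE scaling the count was 23 higher and 10 lower, and with DESeq2 28 higher and 20 lower, and the members' median turned to -0.02 in both, against -0.24 and -0.25 for all genes. Relative to all genes the members lay 0.23 higher with the main scaling, 0.22 with RLE and 0.23 with DESeq2.

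The assembly factors of complex I led the members higher than in satellite glia, with 5 of 8 passing. Ndufaf6, Ndufaf5 (a hydroxylase of a core subunit) and Ndufaf1 differed by log2 1.27 ± 0.20, 1.20 ± 0.20 and 1.05 ± 0.20, and Ndufaf5 read 0.318 and 0.345 in neurons against 0.123 and 0.138 in satellite glia. The membrane arm subunit Ndufa10 read 3.44 and 2.92 in neurons against 1.35 and 1.32, log2 1.10 ± 0.17. Ndufv3 and Ndufb8 differed by 1.09 ± 0.18 and 1.02 ± 0.19, and Ndufa4 by 0.94 ± 0.21. The groups did not overlap for any of these genes, which is close to given for genes picked mostly as the largest called differences. The share of all genes without overlap was not computed. Cox4i1, the common form of subunit 4, was at 16.3 and 15.01 in neurons and 14.7 and 14.9 in satellite glia, and its difference of -0.06 ± 0.19 did not pass (adjusted p = 0.81), though DESeq2 gave -0.32 (adjusted p = 0.0002518).

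Satellite glia carried more of 5 members, and the gap was widest for Cox6b2 and Cox7a1. Cox6b2 was at 0.0139 and 0.00647 in neurons against 0.381 and 0.267 in satellite glia (771 and 474 UMIs), a log2 difference of -5.13 ± 0.26 (adjusted p = 4.95e-14). Cox7a1 was at 0.0735 and 0.0393 in neurons against 0.485 and 0.261 in satellite glia, -2.86 ± 0.21. In the single libraries the differences were -4.85 and -5.36 for Cox6b2 and -2.85 in each for Cox7a1. Ndufa13, a membrane arm subunit also known as GRIM-19, read 6.86 and 4.77 in neurons against 9.75 and 7.63, -0.73 ± 0.23, a call lost without the library term (adjusted p = 0.05098), and Ndufa12 differed by -0.37 ± 0.16. Ndufa12 lost its call under several settings, with an adjusted p of 0.1418 without the filter on low counts. Cox4i2 was lower as well, at 0.0154 and 0.0276 in neurons against 0.0356 and 0.0557.

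Cox6b2 was not restricted to satellite glia. Fibroblasts held 0.620 and 0.516 per 10000 (111 and 121 UMIs), the highest values of the types in the fit in both libraries, and non-myelinating Schwann cells 0.316 and 0.233. Pericytes held 0.273 and 0.276, on 9 and 13 UMIs. Endothelial cells held 0.0265 and 0.0133, and myelinating Schwann cells 0.0458 and 0.00933. Cox7a1 was highest in satellite glia in both libraries, followed in replicate 1 by non-myelinating Schwann cells at 0.359 (25 UMIs), which held 0.0998 (3 UMIs) in replicate 2.

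**Figure D3:**
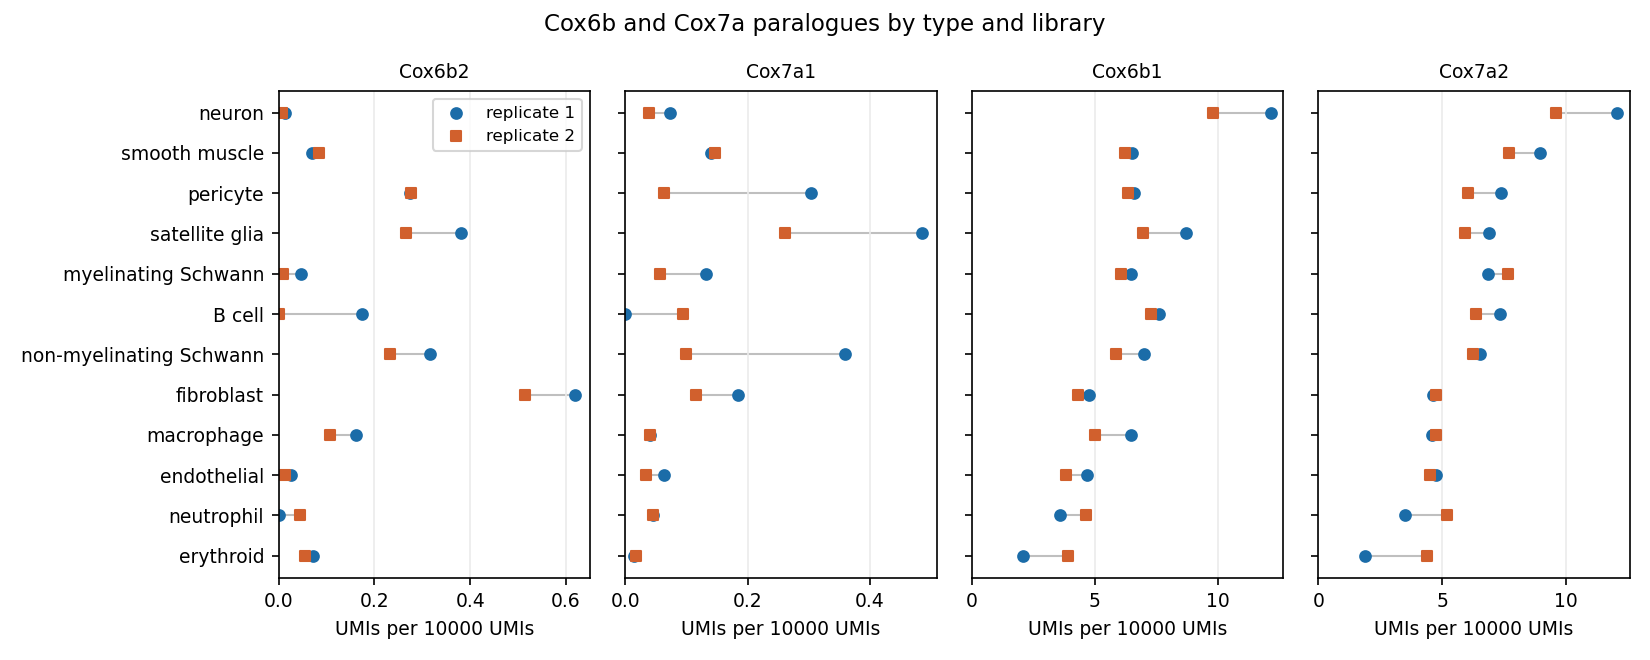
UMIs per 10000 of the paralogues Cox6b2 and Cox7a1 and their common partners Cox6b1 and Cox7a2 in each broad type, with points for the 2 libraries; each panel has its own axis. Neurons sit at the low end for Cox6b2 (0.0139 and 0.00647) and at the high end for Cox6b1 and Cox7a2.

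All 13 mt- genes were lower in neurons than in satellite glia, with a median log2 difference of -1.95. The differences ran between -1.11 for mt-Cytb, the complex III subunit, and -4.13 for mt-Nd6, the complex I subunit encoded on the other strand of mitochondrial DNA. mt-Nd6 read 0.0654 and 0.0421 per 10000 in neurons against 1.04 and 0.674 in satellite glia. mt-Co1, the catalytic subunit of complex IV, read 19.1 and 30.4 in neurons against 81.3 and 87.3, -1.95 ± 0.24. Among the lists, 5 of 8 biogenesis regulators were lower in neurons, led by Ppargc1a (PGC-1alpha), at 0.116 and 0.130 against 0.672 and 0.624 in satellite glia (-2.55 ± 0.22), and Esrra, its partner receptor, at -2.16 ± 0.20. Of the glycolysis genes 12 of 19 were higher and 4 lower, the lower ones being Aldoc, Ldhb, Slc16a1 and Slc2a1. Of the TCA cycle genes 5 of 14 were higher and 2 lower, of complex II and cytochrome c 2 of 6 higher and 1 lower, and of complex IV assembly 5 of 11 higher and 1 lower.

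Mural cells (pericytes and smooth muscle, averaged) were set against the mean of the other non-neuronal types. Of 85 members, 43 were higher and none lower, with 42 passing in neither direction. The background was 14.0% of genes higher and 6.93% lower. The members' median was 0.33 against 0.03 for all genes, and 11 of 13 mt- genes were higher, with a median of 0.61. The summed mt- level was 828.8 and 877.1 in smooth muscle but 361.4 and 508.9 in pericytes, below satellite glia and myelinating Schwann cells (492.3 and 635.8) in both libraries. By complex, 17 of 36 complex I members, 2 of 8 assembly factors, 6 of 8 of complex III, 8 of 16 of complex IV and 10 of 17 of complex V were higher. Without the library term 27 members and 5 mt- genes remained past the threshold.

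A pair of paralogues set the mural cells apart. Ndufa4l2 (chr10:127514967-127517154), a paralogue of Ndufa4 known as a hypoxia-induced gene, read 13.6 and 10.18 per 10000 in pericytes (448 and 479 UMIs) and 5.91 and 7.45 in smooth muscle (254 and 354 UMIs), against a mean of 0.0335 and 0.0315 over the other non-neuronal types. Cox4i2 (chr2:152754173-152765037), the form of subunit 4 known for oxygen sensing in the carotid body and lung vessels, read 7.59 and 4.57 in pericytes (250 and 215 UMIs) and 3.44 and 3.01 in smooth muscle (148 and 143 UMIs), against 0.0229 and 0.0604. The mural levels lay far above every other type in both libraries. Both genes are called higher in the fit, but their folds and p-values are not given, because most other types held 0 or a few UMIs, so that the fold rests on the prior count and the genes passed the filter on low counts largely through the mural sums.

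In pericytes the restricted form outnumbered the common one for one gene pair. UMIs of Ndufa4l2 divided by those of Ndufa4 came to 2.218 and 1.452 in pericytes, 0.6546 and 0.8064 in smooth muscle and 0.0235 and 0.00782 in endothelial cells. Cox4i2 divided by Cox4i1 came to 0.591 and 0.3846 in pericytes, 0.2496 and 0.2483 in smooth muscle and 0.00996 and 0.00494 in endothelial cells. Ndufa4 itself did not pass between mural and other cells (-0.20 ± 0.13, adjusted p = 0.306), nor did Cox4i1 (0.15 ± 0.11, adjusted p = 0.422), although DESeq2 put Cox4i1 past the threshold at 0.15 (adjusted p = 0.04489).

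After each cell was thinned to 1500 UMIs, 80.95% of pericytes of replicate 1 had an Ndufa4l2 UMI (exact 95% interval 72.13 to 87.96) and 70.9% in replicate 2 (62.43 to 78.42). Smooth muscle cells reached 60.0% and 69.7%. In satellite glia, at medians of 8119 and 7014.5 UMIs before thinning, the shares were 0.0425% and 0.3245%, so the mural shares lie well above that level. Unthinned, the shares were 93.46% and 96.32% in pericytes and 0.2966% and 0.8481% in satellite glia. For Cox4i2 the thinned shares were 61.9% and 50.75% in pericytes, 46.67% and 28.28% in smooth muscle and 0.638% and 0.7708% in satellite glia. Thinning left out 2 cells in each pericyte library, and intervals cover counting error only. The pericyte markers summed to 140.2 and 119.0 in pericytes and to 2.40 and 0.92 in endothelial cells.

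**Figure D4:**
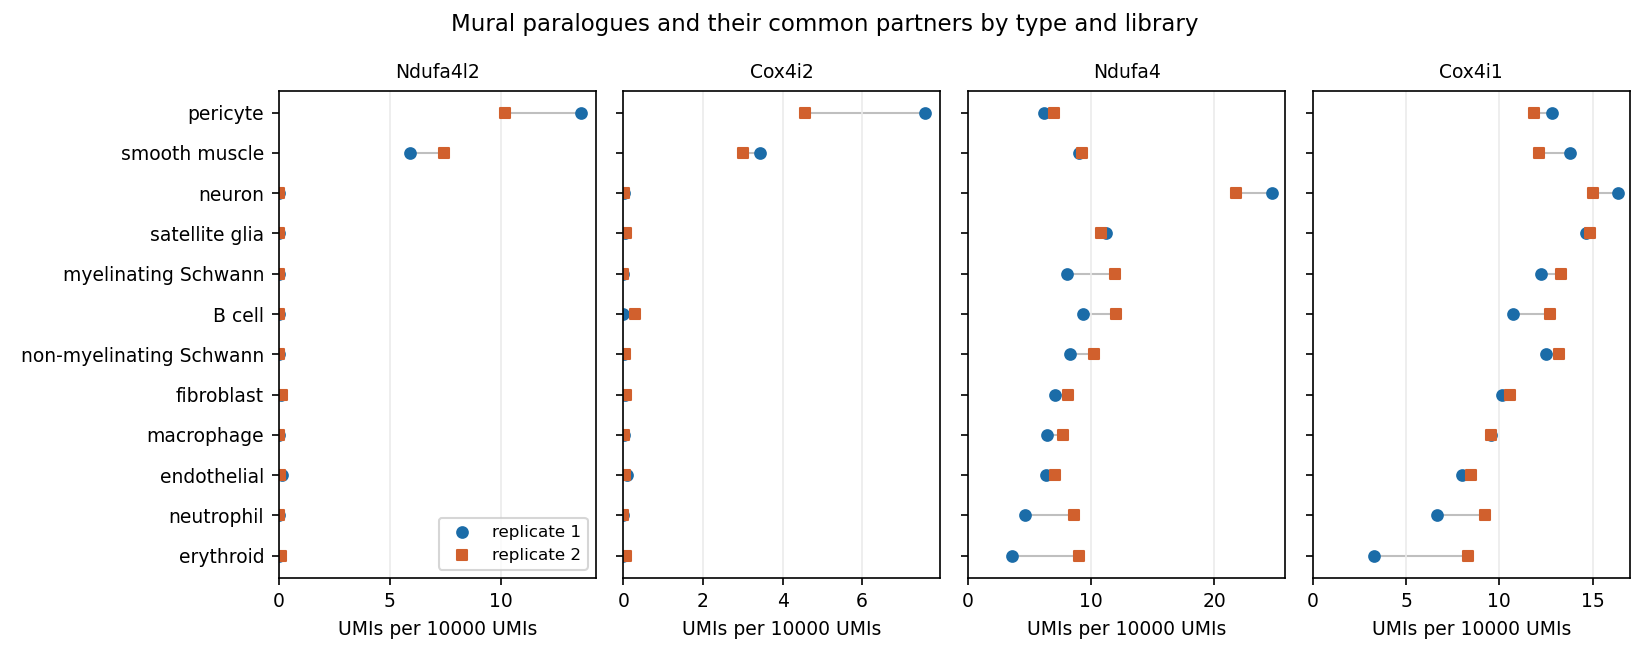
UMIs per 10000 of Ndufa4l2, Cox4i2 and their common partners Ndufa4 and Cox4i1 in each broad type, points for the 2 libraries, own axis for each panel. Pericytes and smooth muscle stand alone for Ndufa4l2 and Cox4i2, while Ndufa4 is highest in neurons, at 24.7 and 21.7.

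Other mural differences were in genes common to all cells. Among them, the assembly factor Ndufaf4 differed by log2 0.92 ± 0.26, Cox8a by 0.82 ± 0.11 and Cox6c by 0.81 ± 0.11. Ndufaf4 rested on few UMIs. Pericytes held 0.8805 and 0.3188 (29 and 15 UMIs), in replicate 2 below satellite glia (0.3264), endothelial cells (0.3366) and B cells (0.5615). Neutrophils, on the other side, held 1 UMI of Ndufaf4 in each library. Cox8a read 19.9 and 18.5 in mural cells against 10.4 and 10.6. Cox7a1 and Cox6b2 did not pass here (adjusted p = 0.222 and 0.476). Complex II and cytochrome c genes were higher in 5 of 6 and TCA cycle genes in 8 of 14, with none lower in either list, whereas none of 11 complex IV assembly genes passed in either direction by edgeR's test. Glycolysis genes were higher in 4 of 19 and lower in 2, and 1 of 8 biogenesis regulators was higher, Ppargc1b.

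Neutrophils against macrophages, the myeloid pair, gave few member calls. Of 85 members, 1 was higher, 3 were lower and 81 passed in neither direction, where 7.66% of all genes were higher and 9.89% lower; at an unadjusted p under 0.05 the count was 10. The members' median was -0.06 against -0.25 for all genes, and it was -0.29 in replicate 1 and 0.14 in replicate 2, so its direction was not the same in both libraries. With RLE scaling 4 members were higher and 2 lower, at a median of 0.09, and with DESeq2 7 and 2. Only 47 and 66 neutrophils entered the sums. Apoe, an abundant macrophage and satellite glia gene, was at 6.73 and 21.36 in neutrophils against 487.7 and 399.9 in macrophages.

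The member higher in neutrophils was Ndufaf7, a methyltransferase of complex I assembly, at 0.455 and 0.538 against 0.282 and 0.197 in macrophages (1.33 ± 0.38, adjusted p = 0.0157), a call lost when cells needed at least 1000 genes (adjusted p = 0.07016). Atp5g2 read 0.955 and 1.34 in neutrophils against 3.51 and 3.34, -1.33 ± 0.24, while Atp5g1 and Atp5g3 did not pass. Ndufc2, a membrane arm subunit, differed by -1.11 ± 0.23 and Ndufs8, a core iron-sulphur subunit, by -0.86 ± 0.28, and Ndufs8 did not pass with RLE scaling (adjusted p = 0.09685). Of the mt- genes 10 of 13 were lower in neutrophils, with a median of -1.12, and mt-Nd1 read 2.41 and 7.44 against 15.9 and 19.3. Glycolysis genes were higher in 8 of 19 and lower in none, with Pkm at 1.76 ± 0.21. Of the TCA cycle genes 3 of 14 were higher and 1 lower, complex II and cytochrome c had 1 of 6 lower (Sdhc), complex IV assembly had 1 of 11 higher (Cox17), and none of the 8 biogenesis regulators passed.

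Among neurons, the NF gate (neurofilament-rich, myelinated A-fibre cells, 38 and 59 cells) was set against the mean of the C-fibre gates NP1, NP2 and NP3 (non-peptidergic), TH (tyrosine hydroxylase) and PEP-C (peptidergic). The nuclear sum was 827.8 and 507.5 UMIs per 10000 in NF neurons, against values between 355.1 and 489.4 in the C-fibre gates. NF neurons were the highest of these 6 gates in each library, and the gap was wider in replicate 1. The TRPM8 gate, with too few cells to enter the fit, held 575.9 and 572.9, above NF neurons in replicate 2. Of 87 members with a UMI in the 6 gates, 61 had their highest level in NF neurons in both libraries. The share of all genes with their highest level in NF neurons was not computed. The mt- sum was 96.58 and 314.2 in NF neurons, against 155.7 to 307.6 in replicate 1 and 242.6 to 463.8 in replicate 2 for the C-fibre gates. In replicate 1 NF neurons were lowest, and in replicate 2 they lay above NP1 and NP2.

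Of 84 members tested, 63 were higher in NF neurons, 3 lower and 18 passed in neither direction, where 26.2% of 12690 genes were higher and 20.4% lower. The members' median was 0.62, against 0.00 for all genes, and was 0.87 in replicate 1 and 0.30 in replicate 2. Every called member had the same sign in both libraries, as in each other comparison. That is close to given for a call from 2 libraries. By complex, 27 of 36 of complex I, 3 of 8 assembly factors, 5 of 8 of complex III, 12 of 15 of complex IV and 16 of 17 of complex V were higher. All 13 mt- genes were lower, with a median of -0.82 that came to -1.23 in replicate 1 and -0.39 in replicate 2. By level, mt-Cytb of replicate 2 read 70.12 in NF neurons, above NP1, NP2 and NP3 (58.36, 51.93 and 64.16). It read 86.69 in TH and 70.4 in PEP-C neurons. The fit, with its TMM scaling, still gave mt-Cytb a negative difference in both libraries. Without the library term 5 of the mt- genes passed. Median depth was 91088 and 55293 UMIs a cell in NF neurons, within the range of the C-fibre gates in replicate 1 and below it in replicate 2.

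Cox5a (chr9:57521274-57532426), a complex IV subunit of the matrix side, read 24.0 and 15.3 in NF neurons against 8.68 and 9.08 in the C-fibre mean, log2 1.11 ± 0.14 (adjusted p = 3.18e-05). Of the gates in the fit NP3 was next, at 11.84 and 12.55, while PEP-A and TRPM8 neurons, outside it, held 15.24 and 16.53 and 11.58 and 16.06, above NF neurons in replicate 2. Atp5k, subunit e of complex V whose promoter is shown above, read 16.1 and 4.04 in NF neurons against 6.09 and 2.05, log2 1.14 ± 0.11. Its level was higher in replicate 1 than in replicate 2 in neurons (7.44 and 2.38) and satellite glia (6.27 and 2.26) as well, and its call was lost without the library term (log2 1.27, adjusted p = 0.1049). Uqcr10, a small complex III subunit, read 13.1 and 7.24 in NF neurons against 5.58 and 3.98, 1.01 ± 0.10. Ndufaf5, Ndufaf2 and Ndufa12, the last pair being an assembly factor and the subunit it resembles, differed by 1.23 ± 0.14, 1.05 ± 0.13 and 1.02 ± 0.14. TRPM8 neurons, outside the fit, held Ndufaf5 at 0.6998 and 0.7702, against 0.7323 and 0.5904 in NF neurons, so higher in replicate 2.

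The muscle forms of complex IV subunits were traceable in NF neurons. Cox7a1 read 0.405 and 0.0791 per 10000 in NF neurons (171 and 26 UMIs), against 0.0406 and 0.0240 in the C-fibre mean, log2 2.95 ± 0.32, and 3.54 and 1.84 in the single libraries. Cox6a2 (chr7:128205435-128206387), the heart and skeletal muscle form of Cox6a, had 65 and 8 UMIs in NF neurons, at 0.154 and 0.0244 per 10000, against 0.00199 and 0.00105 in the C-fibre mean. Both lay above each C-fibre gate in both libraries, and the nearest gate for Cox7a1 was PEP-C, at 0.0913 and 0.0570. The common form Cox6a1 did not pass (0.08 ± 0.12, adjusted p = 0.629), nor did Atp5g2 or Cox7a2l. PEP-A neurons, too few to enter the fit at 14 and 20 cells, held 0.295 and 0.158 of Cox7a1.

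Only 3 members were lower in NF neurons, all linked to complex I. Ndufv1, the core subunit that oxidises NADH, read 2.06 and 1.85 in NF neurons against 2.68 and 2.56, -0.49 ± 0.14 (adjusted p = 0.0107). The assembly factors Ndufaf7 and Ndufaf3 differed by -0.48 ± 0.14 and -0.37 ± 0.12, and the call of Ndufaf3 was lost with DESeq2 (adjusted p = 0.05583) and without the library term (0.0597). These are differences from the C-fibre mean, and NP3 neurons were near NF neurons. Ndufaf7 read 0.3874 and 0.3993 in NP3 against 0.3508 and 0.3987 in NF neurons. Ndufaf3 read 0.7321 and 0.7612 in NP3, below the 0.7536 and 0.8369 of NF neurons. Of the biogenesis regulators 4 of 8 were higher and 1 lower, with Ppargc1a at 0.597 and 0.502 in NF neurons against 0.0601 and 0.0704 (3.24 ± 0.15), Esrra at 2.10 ± 0.17 and Yy1 at -0.57 ± 0.13. TCA cycle genes were higher in 9 of 14 and lower in none, complex II and cytochrome c in 4 of 6 and none, and complex IV assembly in 5 of 12 with 1 lower. Glycolysis genes were split, 8 of 19 higher and 6 lower, with Ldhb at 2.68 ± 0.14 and Gapdh at -0.51 ± 0.14.

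**Figure D5:**
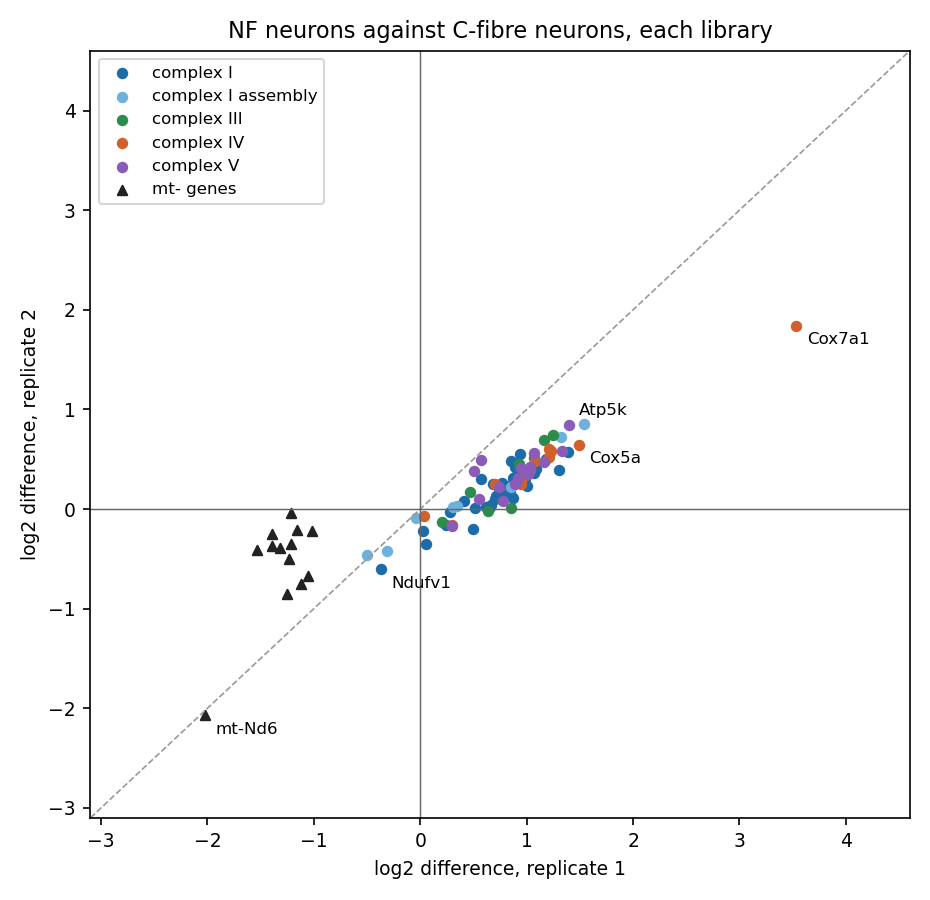
Log2 differences between NF and C-fibre neurons for each member (circles, coloured by complex) and mt- gene (triangles), replicate 1 on the x axis and replicate 2 on the y axis, with the line of equality dashed; Cox4i2, Ndufa4l2 and Cox6a2 are left out. Members lie mostly in the upper right and nearer to 0 in replicate 2 (medians 0.87 and 0.30), and the mt- genes lie in the lower left (medians -1.23 and -0.39).

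The itch-linked gates NP2 and NP3 were set against the peptidergic pain-linked PEP-C gate. Of 84 members, 1 was higher, 5 were lower and 78 passed in neither direction, where 11.3% of genes were higher and 16.1% lower, so member calls were fewer than the background in both directions. The members' median was -0.07, against -0.04 for all genes. Cox7a2l, which takes part in joining complexes III and IV, was higher, at 4.54 and 4.17 in itch neurons against 3.58 and 3.03 in PEP-C neurons (0.44 ± 0.11, adjusted p = 0.00938).

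The members lower in itch neurons were Cox4i2, Cox7a1, Ndufa12, Cox6c and Ndufb8. Cox7a1 read 0.0335 and 0.0121 in itch neurons against 0.0913 and 0.0570, -1.80 ± 0.50. Cox4i2 read 0.00624 and 0 in itch neurons, on no more than 3 UMIs in a gate, against 0.0304 and 0.0570 in PEP-C neurons (14 and 51 UMIs). Ndufa12 differed by -0.61 ± 0.17, Cox6c by -0.43 ± 0.14 and Ndufb8 by -0.42 ± 0.14, and these calls, with that of Cox7a1, were lost without the library term. Of the mt- genes 7 of 13 were lower, with a median of -0.52. The itch gates were not alike in this. mt-Co1 read 14.57 and 22.74 in NP2, but 31.87 and 37.45 in NP3, against 31.99 and 36.01 in PEP-C neurons. mt-Co3 read 27.4 and 36.74 in NP2, 58.86 and 69.78 in NP3 and 59.93 and 73.11 in PEP-C neurons. The satellite glia markers summed to 19.2 and 10.68 in PEP-C neurons, to 20.09 and 9.73 in NP3 and to 5.75 and 6.39 in NP2, and their part in these differences was not tested. Of the TCA cycle genes 1 of 14 was lower (Dlst), glycolysis had 2 of 19 higher and 2 lower, and no gene of complex II and cytochrome c, complex IV assembly or the biogenesis regulators passed.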

How the data were processed

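Droplet libraries of single cells (10x 3' v3.1 kit) were deposited as matrices of raw UMI counts per gene and barcode, with lists of barcodes and features as other files of names, which the authors made with Cell Ranger 5.0.1 on mm10, per the submitters' processing notes. Barcodes under 500 genes or with a mitochondrial share of 20% or more were dropped, which left 8329 and 11290 cells (median 4969 and 4075.5 UMIs). A cell was gated to a broad type by a score over fixed markers (at least 3 detected, score at least 0.3, second score at most 0.6 of the first, levels capped at their 90th percentile), and neurons needed 10000 UMIs. Neurons were assigned to a type by mean z-score (at least 0.5, with a gap of 0.5). This scoring rule was chosen after marker values were seen, and left 6240 and 6655 gated cells (74.9% and 58.9%). Types with 20 cells in each library were summed per library. Scrublet's automatic threshold called 1 and 0 doublets and was not used; an alternative removed the 555 and 1020 highest scores.

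The sums were tested with edgeR 4.0.16's quasi-likelihood test (TMM scaling, filterByExpr, type and library terms, Benjamini-Hochberg at 0.05 over all genes), in 1 fit of 12 types (12503 genes, 11 residual degrees of freedom) and 1 of 6 neuron types (12690 genes, 5). Both libraries hold every type, so same-numbered sums come from the same sample and the library is a replicate block in the main design. SE is the log2 difference over the square root of F. In simulated counts, 100 of 100 genes changed 2-fold were recovered in the neuron against non-neuronal comparison (11315 genes, 13 false calls) and 97 of 100 in the A-fibre against C-fibre comparison (12091 genes, 12 false calls). The simulation gave all types the same mean profile, had no library effect and changed only better counted genes. Its spread was below that of the broad fit, whose common biological coefficient of variation was 0.1493. It therefore does not cover the scarce paralogues. The genes named were the 6 largest called differences in each direction with a level of at least 0.2, chosen paralogue pairs and the 6 most abundant members; members and lists were chosen with earlier results of these data known, and genes singled out beyond that rule were chosen after their values were seen. Positions are from GENCODE 21 on GRCm38. Reads from near-identical pseudogenes could be lost or split in these counts. R 4.3.3, DESeq2 1.42.0, Python 3.11.15 and scanpy 1.11.5 were used. 1 gene among those the rule names is not reported here.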

Additional observations from a re-analysis of the deposited data

How the results depend on the processing

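For neurons against the mean of non-neuronal types, RLE scaling gave 44 members higher, a members' median of 0.32 and an mt- median of -1.15, and DESeq2 gave 4 lower, 0.32 and -1.15; 1 member was lower with no replicate block and 1 with at least 1000 genes per cell, where Cox7a1 turned to 0.0342. Against satellite glia, RLE gave 10 lower and DESeq2 20, with a members' median of -0.0243 in both, no replicate block gave 3 lower, and the median was 0.15 with no mitochondrial filter, 0.15 with a mitochondrial share under 10% and 0.30 with at least 1000 genes, and 0.23 to 0.29 in single libraries. For mural cells, no replicate block gave 27 members and 5 mt- genes higher, and a mitochondrial share under 10% gave 7 mt- genes higher and an mt- median of 0.50; the members' median was 0.32 to 0.41 in single libraries. For neutrophils against macrophages, members higher numbered 4 with RLE, 7 with DESeq2 and 0 by edgeR with at least 1000 genes, mt- genes lower numbered 4 with no replicate block, and single libraries ran from -0.29 to 0.14 for the members and from -1.471 to -1.003 for the mt- genes, the members' sign turning without replicate 1. For A-fibre against C-fibre neurons, no replicate block left 5 mt- genes lower. For itch against peptidergic neurons, mt- genes lower numbered 3 with DESeq2, 13 with no filter on low counts, 1 with no replicate block and 1 with a mitochondrial share under 10%, members higher numbered 2 with no filter, members lower 1 with no replicate block, and the mt- median was -0.44 with no mitochondrial filter and -0.51 to -0.43 in single libraries. Summed members in neurons over satellite glia came to 1.368, 1.307 with mt- and ribosomal protein genes out of the denominator and 1.296 as a median over cells (1.33 to 1.405 in single libraries). The cause of these shifts was not tested. Leaving out the highest Scrublet scores, taking the mt- genes out of the counts and, added after seeing the data, dropping the UMI minimum for neurons moved none of the comparison counts beyond 1.5 times. In all, 311 recomputed comparison values stayed the same, 36 moved and 3 reversed. A count stayed the same if within 1.5 times, and a median or ratio if within the SD between the 2 libraries. By that rule the A-fibre against C-fibre members' median of 0.30 without replicate 1 was the same as 0.62. Low counts limit the restricted paralogues and the 47 and 66 neutrophils, and intervals cover counting error only.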

Other observations

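PEP-A and TRPM8 neurons had too few cells in a library to enter the tests (14 and 20 cells, and 27 and 17), and their levels are given as values. The nuclear oxidative phosphorylation genes summed to 576.3 and 504.3 UMIs per 10000 in PEP-A neurons, the gate of peptidergic A-fibre cells, and to 575.9 and 572.9 in TRPM8 neurons, which carry the cold receptor. Against the 827.8 and 507.5 of NF neurons, both were lower in replicate 1, while in replicate 2 TRPM8 neurons were higher and PEP-A neurons lower by a small margin. The mt- genes summed to 106.5 and 173.6 in PEP-A neurons and to 489.6 and 613.1 in TRPM8 neurons, the lowest and highest mt- sums of the 8 gates in replicate 2. The mt- sum divided by the nuclear sum was 0.1848 and 0.3442 in PEP-A neurons and 0.8501 and 1.07 in TRPM8 neurons. Cox5a read 15.2 and 16.5 in PEP-A neurons and 11.6 and 16.1 in TRPM8 neurons, against 24.0 and 15.3 in NF neurons. Among types outside the tests, cycling cells held the highest Cox6b2 level, 1.546 and 0.937 per 10000, on 23 and 12 UMIs in 12 and 11 cells.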
